A study of Mus musculus with 13 samples.

Results

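Heme breakdown and iron handling were followed through 10 genes out of the 55353 gene symbols in the deposited tables. These are Hmox1, Blvra, Blvrb, Slc40a1, Fth1, Ftl1, Tfrc, Cd163, Slc48a1 and Hamp, taken as a fixed list of gene names, and raw transcript counts of all 10 were found in every library. Levels were read in barcodes with at least 1500 UMIs (unique molecular identifiers, each counted as 1 captured transcript), grouped into Kupffer-like, other macrophage-like, biliary epithelial cell (BEC)-like, liver sinusoidal endothelial cell (LSEC)-like, hepatocyte-like and dendritic cell (DC)-like cells by marker genes. The 10 genes took no part in clustering or naming the cells.

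The study profiled mouse liver by droplet-based single-cell RNA sequencing to resolve which cells act around the bile duct during cholangitis. Male C57BL/6J mice, aged 6 to 12 weeks per the study's methods, received DDC, that is 3,5-diethoxycarbonyl-1,4-dihydrocollidine, as 0.1% of their chow. There were 12 atlas libraries, 1 for each of 2 isolation protocols at D0 (no DDC), D3, D5, D9, D19 and D25 of the diet, and 1 STOP library from mice given DDC for 18 days followed by 7 days of recovery. Protocol A sorted alive singlets together with cells positive for Epcam, Pdpn, Lyve-1 or Cd45, Lyve-1- cells with Cd31 and retinoid-autofluorescent cells, whereas protocol B sorted alive cells of a stellate cell preparation, Cd45+ Itgax+ Cd64- cells, Epcam+ cells and Cd3e+ Lyve-1- cells. No transgene or mutation is named for any group. D3 and D5 are called onset and D9, D19 and D25 progression. STOP used protocol B, and the group label of D19 B gives the day as D18. The labels do not say which mice went into which library, so that p-values measure the spread between these libraries.

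Heme is taken apart by heme oxygenase 1 (Hmox1) into biliverdin, carbon monoxide and iron, and biliverdin reductases turn biliverdin into bilirubin. Macrophages of spleen and liver take up worn red cells and free hemoglobin, store the iron in ferritin or release it through ferroportin (Slc40a1), and the liver hormone hepcidin (Hamp) closes that exit by triggering ferroportin degradation. DDC inhibits ferrochelatase, the enzyme that inserts iron into protoporphyrin to complete heme, and leads to porphyrin deposits in bile ducts.

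Several of the 10 mRNAs are themselves controlled by iron through iron-responsive elements, short hairpins that iron regulatory proteins bind when iron is scarce. Binding in a 5′ UTR blocks translation, which mRNA counts do not show, and binding in a 3′ UTR protects the mRNA from decay, which mRNA counts can show. The GENCODE transcripts (build GRCm38, as named in the submitters' processing notes) were searched on the coding strand for a C, any 5 bases, the loop CAGTGN with a last base other than G, and 5 bases that pair with the first 5, G-T pairs allowed. Of the longest coding transcripts of 21877 genes, 204 (0.932%) held a match anywhere, coding sequence included, and 4 of the 10 genes did. The matches of these 4 genes all lay in UTRs. A match is a description of the letters and no measurement of binding. The windows of 27 bases are shown because they separate genes whose storage or export products are controlled at translation from Tfrc, whose 3′ UTR held 4 matches. The loop is in capitals.
Slc40a1, 5′ UTR, chr1:45925466-45925492, minus strand: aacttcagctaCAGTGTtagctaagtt
Fth1, 5′ UTR, chr19:9982733-9982759, plus strand: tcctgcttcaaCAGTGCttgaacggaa
Ftl1, 5′ UTR, chr7:45459780-45459806, minus strand: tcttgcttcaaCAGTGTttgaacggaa
Tfrc match 1, 3′ UTR, chr16:32631220-32631246, plus strand: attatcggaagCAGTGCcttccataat
Tfrc match 2, 3′ UTR, chr16:32631599-32631625, plus strand: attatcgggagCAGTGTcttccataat
Tfrc match 3, 3′ UTR, chr16:32631664-32631690, plus strand: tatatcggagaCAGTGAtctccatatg
Tfrc match 4, 3′ UTR, chr16:32631711-32631737, plus strand: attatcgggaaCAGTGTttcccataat

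Libraries held between 29307190 and 108602421 UMIs, and 95563 barcodes passed 1500 UMIs, of which 54704 fell into the 6 cell types. Any pair of libraries shared at most 0.519% of the barcodes of the smaller one. Kupffer-like cells were 1 cluster of 3864 cells led by Clec4f and Marco. The 8597 other macrophage-like cells formed 3 clusters, and 1 of them, led by Cd5l and C1qb with 1542 cells, held markers of both macrophage classes. The hepatocyte-like class was thin outside STOP and D25 B (911 cells in all, 467 and 216 of them there), and the sum of its 11 hepatocyte markers was 57460 CPM at D0 and 11850 to 38710 CPM in progression, beside BEC markers of up to 4968 and LSEC markers of up to 13500 CPM. D19 A stood apart, with hemoglobin transcripts of 1297 CPM in other macrophage-like cells and, in DC-like cells, 4504 CPM of other macrophage markers against at most 599 CPM at D0 and onset. Only libraries with at least 20 cells of a type were used, which gave 12 atlas libraries for Kupffer-like, other macrophage-like, LSEC-like and DC-like cells, 9 for BEC-like cells (D0 A as the only D0 library) and 6 for hepatocyte-like cells (D0 A, and 5 of progression). Levels are given as CPM, the UMIs of a gene per 1000000 UMIs of all cells of that type in that library. Free RNA in the suspension was gauged by barcodes with 10 to 100 UMIs of the same library, and D9 A and D25 A held few of these (2641 and 1772).

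Kupffer-like cells carried the highest median level of both heme entry genes. Cd163, the scavenger receptor for hemoglobin bound to haptoglobin, lay between 145 and 554 CPM over the 12 atlas libraries, with a mean of 329 ± 109 CPM (SD, n = 12). The next type, other macrophage-like cells, reached only 0.928 to 44.5 CPM, so that the ranges did not overlap. Slc48a1, which moves heme out of the phagolysosome, lay between 99.0 and 229 CPM in Kupffer-like cells with a median of 165 CPM. Its range in other macrophage-like cells was 59.0 to 237 CPM with a median of 121.5 CPM, and these ranges overlapped. BEC-like (49.8 to 71.3 CPM), hepatocyte-like, DC-like and LSEC-like cells followed in this order, each overlapping the next in range. BEC-like and LSEC-like cells (26.2 to 46.8 CPM) did not overlap.

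Heme degradation was also a macrophage feature, with hepatocyte-like cells joining for 1 enzyme. Hmox1 stood at 1217, 1908 and 3469 CPM (lowest, median, highest) in Kupffer-like cells and at 178, 823 and 1806 CPM in other macrophage-like cells, and it was higher in Kupffer-like cells in 12 of 12 libraries. Median Hmox1 levels elsewhere were 159.5 CPM in hepatocyte-like, 125.6 CPM in LSEC-like, 115 CPM in BEC-like and 27.9 CPM in DC-like cells. Ranges of these neighbours overlapped. In Kupffer-like cells the level was above that of the low barcodes in 12 of 12 libraries. In other macrophage-like cells it was so in 11 of 12, all but D0 A (365 against 383 CPM). For hepatocyte-like, LSEC-like, BEC-like and DC-like cells it was so in 2 of 6, 1 of 12, 0 of 9 and 0 of 12 libraries. Free RNA is only a part of a cell's UMIs, so this does not say how much of a level is free RNA. T-like cells, named by T cell markers, had a median Hmox1 of 13.5 CPM, above the low barcodes in 0 of 12 libraries. Blvra, a biliverdin reductase, separated the macrophage classes (79.2 to 199 CPM in Kupffer-like and 62.6 to 145 CPM in other macrophage-like cells) from BEC-like cells (23.3 to 47.8 CPM) without overlap. DC-like cells reached 66.1 CPM in D19 A, so that their range overlapped that of other macrophage-like cells. Blvrb, which reduces biliverdin isomers and flavins, had its highest median in hepatocyte-like cells (837.5 CPM, range 337 to 1547), followed by Kupffer-like (516 CPM) and other macrophage-like cells (425 CPM), and the last (261 CPM or more) was apart from BEC-like cells (65.1 to 161 CPM) and overlapped LSEC-like cells, of which D0 B reached 279 CPM.

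The ferritin genes, which encode the iron store, had another order. Fth1, the heavy chain that oxidises iron, was highest in other macrophage-like cells with 8021 to 31930 CPM, followed by hepatocyte-like cells with 7300 to 28080 CPM and Kupffer-like cells with 4714 to 30160 CPM. The lowest level was that of LSEC-like cells, with 504 to 1905 CPM, apart from DC-like cells with 3703 to 10520 CPM. Ftl1, the light chain, had medians of 11040, 9640 and 7341 CPM in the same 3 leading types, all with overlapping ranges. Processed copies of the ferritin genes took almost none of the UMIs, as Ftl2-ps, Fth-ps2 and Fth-ps3 were at 0 in these types. Ftl1-ps1 reached at most 2.22 CPM in Kupffer-like, 3.24 CPM in other macrophage-like and 4.37 CPM in hepatocyte-like cells. Free RNA was rich in ferritin (low barcodes of 3024 to 27070 CPM for Fth1), and Fth1 of BEC-like cells exceeded it in 1 of 9 libraries.

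The iron export and hormone genes each had a distinct leading type, whereas the import gene did not. Slc40a1 in Kupffer-like cells lay between 1268 and 2707 CPM (1863 ± 451, SD, n = 12), above the 61.0 to 622 CPM of other macrophage-like cells in 12 of 12 libraries and without overlap. LSEC-like cells followed with 159 to 322 CPM and a mean of 230.4 ± 52.5 CPM (SD, n = 12). Tfrc, the transferrin receptor, was low throughout, and among the 6 types its highest median was that of BEC-like cells (43.9 CPM, range 29.2 to 59.1), beside 45.5 CPM in T-like cells. It overlapped DC-like (13.1 to 85.5 CPM) and Kupffer-like cells (9.90 to 86.6 CPM). Hamp was found in hepatocyte-like cells at 843 to 1614 CPM, and the next type by median, BEC-like cells, was at 4.32 CPM. The ranges of these types did not overlap, although 1 BEC-like library, D19 A, reached 265 CPM with 5.32% of its 94 cells holding a Hamp UMI. Hamp2, a paralog of Hamp, lay between 13.1 and 239.5 CPM in hepatocyte-like cells, and reads shared between both cannot be told apart in these counts.

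**Figure D1:**
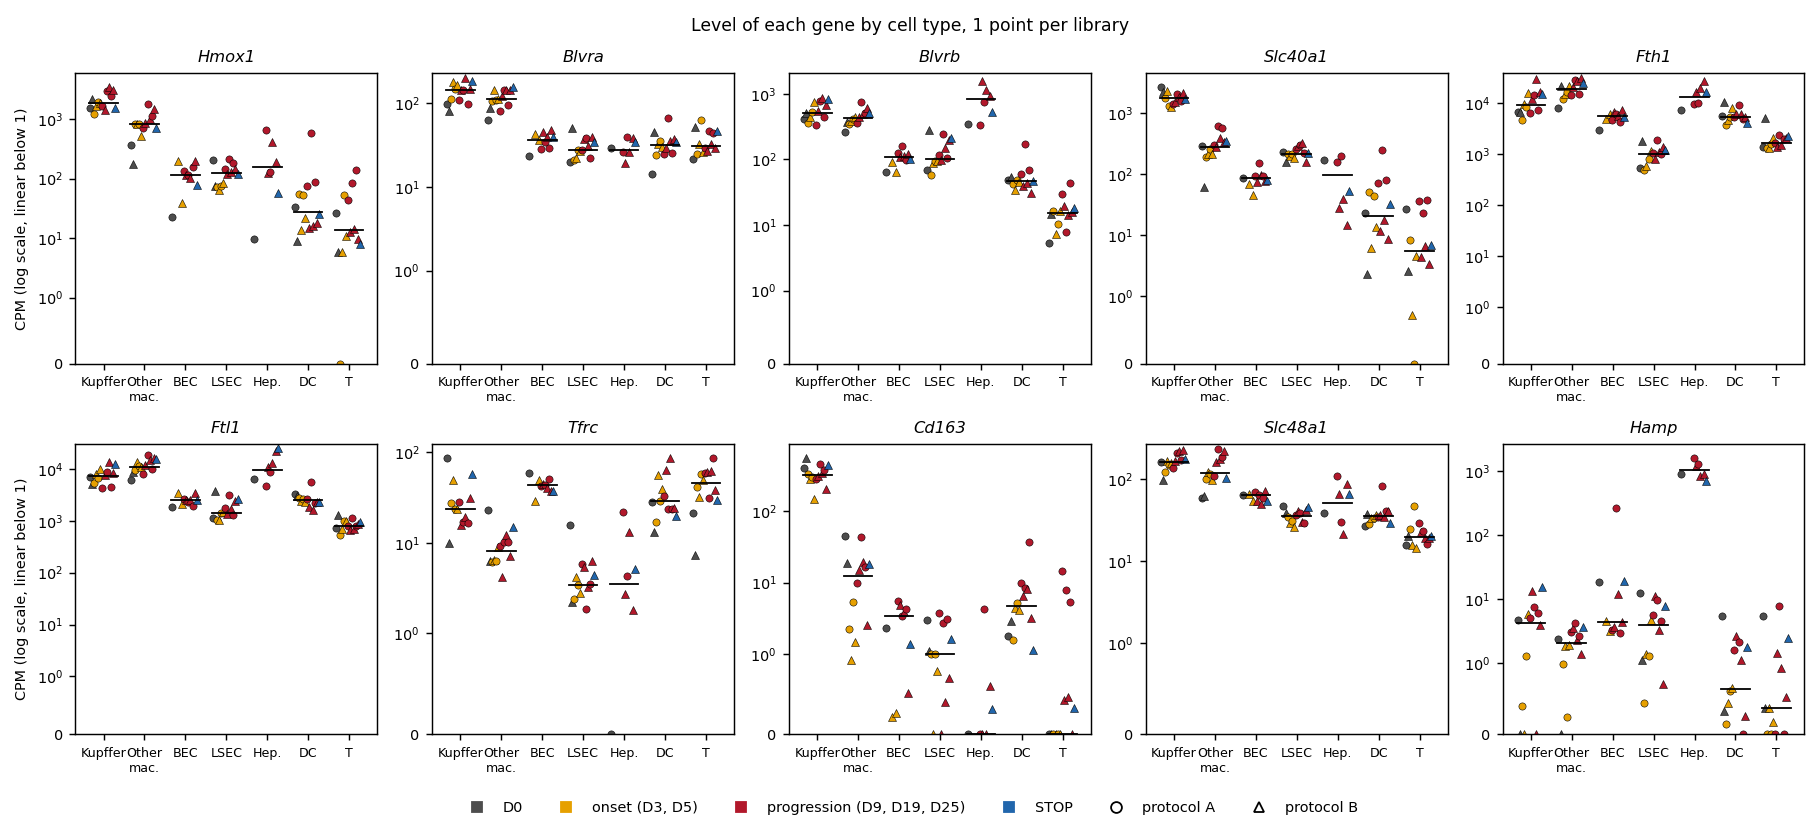
Level of each of the 10 genes (CPM, log scale that is linear below 1) in 6 cell types and in T-like cells. Each point is 1 library with at least 20 cells of the type, coloured by stage and shaped by protocol, and bars are medians of the atlas libraries. Slc40a1 and Cd163 of Kupffer-like cells lie above all other types, and Hamp of hepatocyte-like cells (843 to 1614 CPM) lies above all others.

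The share of cells with a transcript, after each cell was thinned to 1500 UMIs so that depth was equal, gave the same picture for the leading types. T-like cells, which have no known part in heme recycling, served as the comparison. A median of 69.3% of Kupffer-like cells and 39.6% of other macrophage-like cells held Hmox1, against 2.05% of T-like cells. For Slc40a1 the medians were 78.1%, 20.3% and 0.743%, and for Cd163 28.4%, 1.55% and 0%. Hamp was held by 41.7% of hepatocyte-like against 0.0673% of T-like cells. Tfrc was held by 3.11% of Kupffer-like, 6.15% of BEC-like and 6.11% of T-like cells, so that T-like cells held it about as often as BEC-like cells. Before thinning the median over libraries of the median depth was 7112.5 UMIs in Kupffer-like and 4414 UMIs in T-like cells, and 90.2% of Kupffer-like cells held Hmox1.

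The 2 macrophage classes of the same libraries were then compared, with library as a block. The classes come from clustering the same cells on other genes, so the test states how far the 10 genes go with that split and is not independent of it. Called at an adjusted p under 0.05 were 7 of the 10 genes, beside 52.0% of the 10341 genes tested. Higher in Kupffer-like cells were Cd163 (26.6-fold, log2 4.74 ± 0.29 SE), Slc40a1 (5.98-fold, log2 2.58 ± 0.20 SE), Tfrc (2.60-fold), Hmox1 (2.42-fold, log2 1.28 ± 0.17 SE) and Hamp, and 27.6% of all genes tested were called higher. Lower were Fth1 (log2 -0.97 ± 0.17 SE) and Ftl1 (log2 -0.79 ± 0.14 SE), beside 24.4% of all genes. The call of Hamp (log2 0.74, edgeR adjusted p = 0.028) rests on levels of at most 13.3 CPM, near that of free RNA, and was lost with DESeq2 and without D5 A or D5 B. Hamp was too low to be tested without D3 A, D9 A, D9 B, D19 A or D25 A, in the largest cluster alone and without the Cd5l cluster. Blvra, Blvrb and Slc48a1 missed the threshold, with log2 differences of 0.19, 0.18 and 0.22. Their 95% intervals by a normal approximation, narrower than those of the F test, were 0.02 to 0.36, -0.02 to 0.38 and 0.01 to 0.44.

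Storage and export genes also differed in level between the macrophage clusters, which are described here with no test. Medians are over 12 libraries for the Kupffer-like and Ms4a7 clusters and over the 10 DDC libraries for the others, which had under 20 cells at D0. The cluster led by Gpnmb and Fabp5 (1834 cells), genes known from lipid-handling macrophages, had the highest medians of Fth1 (31090 CPM), Ftl1 (21140 CPM) and Slc48a1 (226 CPM) of the 4 clusters. Its Hmox1 median was 1602 CPM and its Slc40a1 median 379 CPM. The cluster led by Cd5l and C1qb had a Slc40a1 median of 647 CPM with Hmox1 at 971 CPM, and that led by Ms4a7 and Cx3cr1 (5221 cells) had the lowest medians of Slc40a1 (175 CPM) and Hmox1 (631 CPM). Cd163 stayed low in all 3, with a highest value of 99.0 CPM. Shares of the clusters moved with the diet. The Gpnmb cluster held 1.42% and 0.320% of other macrophage-like cells in the D0 libraries (2 and 1 cells) and 6.39% to 49.9% in the DDC libraries, and the Ms4a7 cluster held 87.9% and 98.1% at D0 and 32.4% to 80.7% afterwards.

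**Figure D2:**
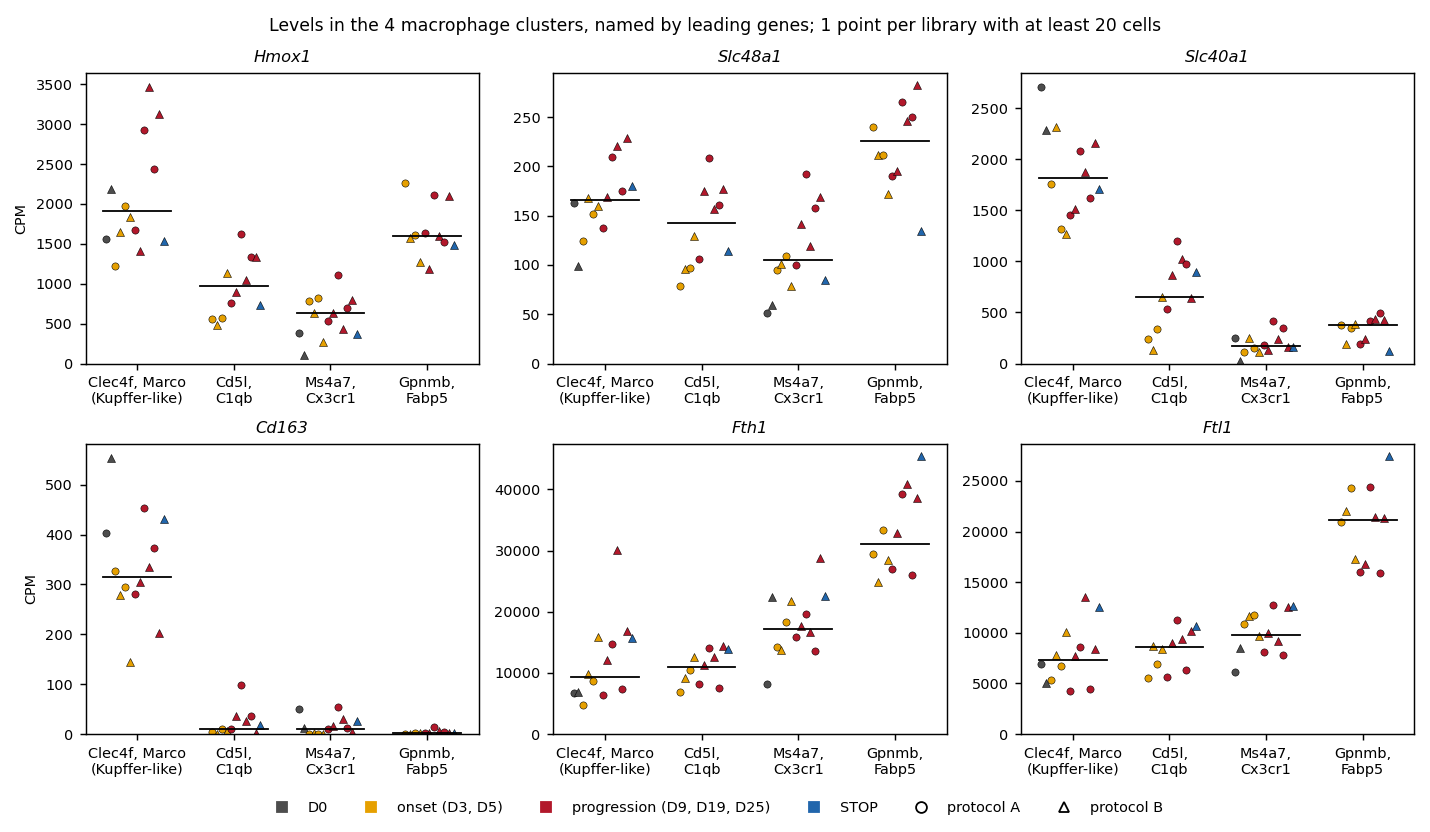
CPM of 6 genes in the 4 macrophage clusters, named by their leading genes, with 1 point per library that holds at least 20 cells of the cluster and bars at the medians of atlas libraries. Fth1 and Ftl1 have their highest medians in the Gpnmb cluster (31090 and 21140 CPM), and Slc40a1 and Cd163 in the Kupffer-like cluster.

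The diet comparison asked whether the genes differ between DDC and D0 within a cell type. It was clearest in other macrophage-like cells, where 2 of the 10 genes were called, both higher, beside 2.28% of 11872 genes called higher and 4.83% called in either direction. Hmox1 was at 365 CPM in D0 A and 178 CPM in D0 B. Onset libraries held 828, 814, 819 and 520 CPM in D3 A, D3 B, D5 A and D5 B. Progression libraries held 708.5 (D9 A), 847 (D9 B), 1806 (D19 A), 1012 (D19 B), 1129 (D25 A) and 1462 CPM (D25 B). Thus 10 of 10 DDC libraries lay above both D0 libraries, with a 3.62-fold difference (log2 1.85 ± 0.37 SE, edgeR adjusted p = 0.013). Slc48a1 was at 59.0 and 62.3 CPM at D0, at 98.6 to 125 CPM in the 4 onset libraries and at 110 to 237 CPM in the 6 progression libraries. It also showed no overlap, and the difference was 2.30-fold (log2 1.20 ± 0.29 SE, edgeR adjusted p = 0.033).

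Both differences rest on 2 D0 libraries. Without D0 B neither gene was called (Hmox1 log2 1.77, Slc48a1 1.56), and the same held in protocol A alone (Hmox1 1.73, Slc48a1 1.51), which has 1 D0 library. In protocol B alone, also with 1 D0 library, Hmox1 was called (1.98) and Slc48a1 was not (0.93). The lone D0 library of these fits is assumed to vary like the others. Hmox1 alone was called without D3 A, D3 B or D5 A and within the Ms4a7 cluster (log2 1.66), where Slc48a1 was at 1.05, and Slc48a1 was also lost without D0 A (log2 0.99). Hmox1 remained called without D19 A, the library with the highest level. Summed Kupffer cell markers in these cells (7 to 8 of 8 detected) ran from 170 to 367 CPM at D0, from 178 to 574 CPM at onset and from 574 to 1886 CPM in progression, summed monocyte markers from 953 to 1088, from 785 to 1011 and from 412.5 to 754 CPM, and hemoglobin transcripts reached 13.2 CPM at D0 and 1297 CPM in progression. With each cell thinned to 1500 UMIs, Hmox1 was held by 24.4% and 11.5% of cells in D0 A and D0 B and by 27.5% to 66.3% in the DDC libraries, and Slc48a1 by 6.77% and 8.24% and by 12.4% to 26.9%. The Gpnmb cluster held 1.42% and 0.320% of this class at D0 and 6.39% to 49.9% under DDC. Its medians were 1602 CPM of Hmox1 and 226 CPM of Slc48a1, against 631 and 105 CPM in the Ms4a7 cluster. The part of the cluster shares and of the marker and hemoglobin moves in the result was not tested.

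Among the other genes of this class, Slc40a1 was at 288 and 61.0 CPM at D0 and at 191 to 622 CPM under DDC, so that the groups overlapped (log2 1.07 ± 0.35 SE, edgeR adjusted p = 0.097). Cd163 was at 44.5 and 18.7 CPM at D0, at 0.928 to 5.39 CPM at onset and at 2.60 to 43.5 CPM in progression (log2 -2.22 ± 0.61 SE, edgeR adjusted p = 0.053). DESeq2 called both, along with Hmox1 and Slc48a1. By edgeR Slc40a1 was called with no filter on low counts, in protocol B alone and without D0 A. Cd163 was called with no filter, with at least 3000 UMIs per cell, at Leiden resolution 1, without the Cd5l cluster, and without D9 A, D19 A, D19 B or D25 B. For Cd163 the low barcodes held up to 76.4 CPM, and other macrophage-like cells exceeded them in 3 of 12 libraries. Blvra, Blvrb, Fth1 and Ftl1 had log2 differences between 0.41 and 0.70 that missed the threshold.

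**Figure D3:**
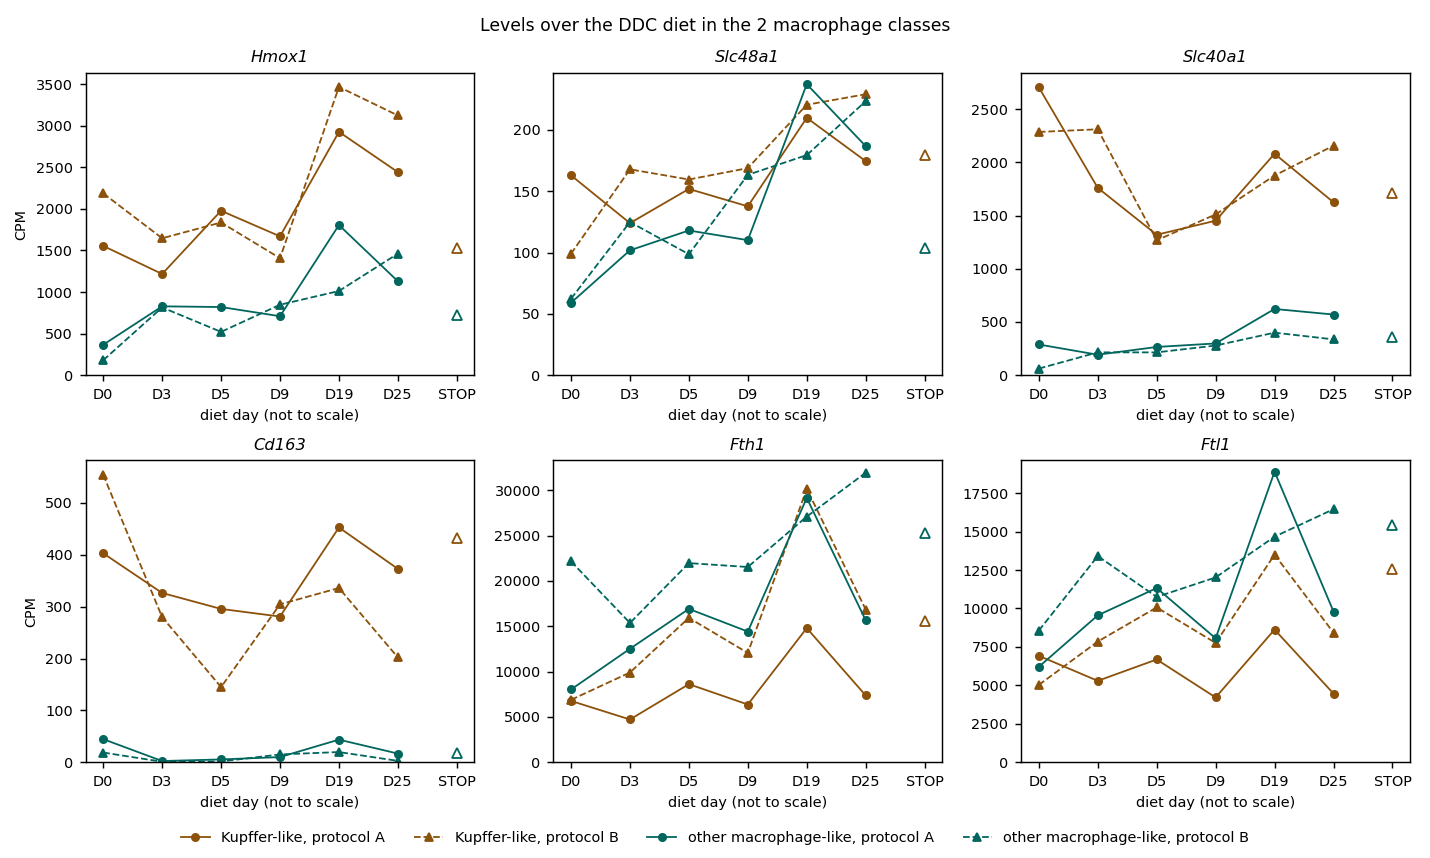
CPM of 6 genes by diet day in Kupffer-like (brown) and other macrophage-like cells (teal), with protocol A as circles on solid lines, protocol B as triangles on dashed lines and STOP as open triangles, 1 library per point. Hmox1 of other macrophage-like cells is at 178 and 365 CPM at D0 and at 520 CPM or more afterwards, whereas in Kupffer-like cells D0 (1555 and 2188 CPM) lies inside the range of the DDC libraries.

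In Kupffer-like cells, 0 of the 10 genes were called between DDC and D0 by edgeR, with 2 at an unadjusted p under 0.05 and 0 called by DESeq2, beside 1.88% of 10398 genes called. Hmox1 was at 1555 and 2188 CPM at D0 and between 1217 and 3469 CPM under DDC, with D3 A lowest and D19 B highest (log2 0.33 ± 0.31 SE). Blvra was at 97.8 and 79.2 CPM at D0 and at 96.7 to 199 CPM afterwards, a 1.66-fold difference with an adjusted p of 0.15 by edgeR. Tfrc had the smallest adjusted p (0.053 by edgeR, log2 -1.30 ± 0.34 SE). That difference rests on D0 A, with 86.6 CPM, as D0 B held 9.90 CPM, against 15.6 to 49.0 CPM in the DDC libraries. The D0 B value is 1 UMI in 25 cells, with an exact 95% Poisson interval of 0.251 to 55.2 CPM that spans the DDC levels. Without D0 A the estimate turned to 1.53 and in protocol B alone to 1.44, both resting on that 1 UMI, whereas Tfrc was called as lower without D0 B (-1.70), D3 B, D9 A, D19 A or D19 B, with at least 3000 UMIs per cell and, together with a higher Fth1, with no filter on low counts.

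Whether the DDC effect itself differs between the macrophage classes was tested with an interaction term that was added after the values had been seen. Of the 10 genes 0 were called by edgeR, with 4 at an unadjusted p under 0.05, beside 0.319% of 10341 genes called. The effect on Hmox1 was 1.45 ± 0.34 (SE) log2 units smaller in Kupffer-like cells (edgeR adjusted p = 0.10), and that on Slc40a1 1.41 ± 0.35 units smaller (adjusted p = 0.11). That on Slc48a1 was 0.80 ± 0.29 units smaller (adjusted p = 0.37), whereas that on Cd163 was 1.84 ± 0.52 units larger (adjusted p = 0.18), and edgeR called Cd163 with no filter on low counts and without the Cd5l cluster. DESeq2 called Hmox1 and Slc40a1, and so did edgeR without D0 A and with no filter, while it called Hmox1 without D5 B or without D19 B. With all libraries, the intervals of the differences by the same normal approximation were -2.12 to -0.78 for Hmox1 and -2.11 to -0.72 for Slc40a1 before adjustment.

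In the remaining cell types 0 genes of the list were called between DDC and D0 by edgeR. In BEC-like cells Hmox1 was at 22.3 CPM in the single D0 library and at 38.9 to 198 CPM in 8 DDC libraries (log2 2.70 ± 0.83 SE, edgeR adjusted p = 0.11), 2 genes had an unadjusted p under 0.05 and 1.56% of 15834 genes were called. DESeq2 called Hmox1, and edgeR did without D5 B, in protocol A alone and, together with Hamp, with no filter on low counts. Different clusters held these cells, as the cluster led by Ces1d and Sox9 had 87.2% of the BEC-like cells of D0 A and 1.52 to 39.8% of those of the DDC libraries, which were otherwise in clusters led by Cxcl5, Spink4, Pkhd1, Spp1 and Cenpf. Summed other macrophage markers in these cells were 243 CPM in D0 A and 539 to 2304 CPM under DDC (12 of 12 detected), and hepatocyte markers 6798 CPM in D0 A and 1530 to 3463 CPM under DDC (11 of 11 detected). In hepatocyte-like cells, in which Tfrc and Cd163 were too low to be tested, Hmox1 was at 9.67 CPM in D0 A (1 UMI in 29 cells, exact 95% Poisson interval 0.245 to 53.9 CPM) and at 665, 123, 131, 408.5 and 188 CPM in D9 A, D9 B, D19 A, D19 B and D25 B. The 5 DDC libraries lay above the 1 D0 library and its interval, and the fitted difference, which rests on that 1 UMI, missed the threshold (log2 5.51, edgeR adjusted p = 0.15, called by DESeq2 and by edgeR with no filter), D9 A and D19 B alone were above the low barcodes, 1 of 8 genes tested had an unadjusted p under 0.05, and 0.185% of 6496 genes were called. Other macrophage markers there summed to 184 CPM at D0 and 442 to 1159 CPM under DDC (7 to 12 of 12 detected). Hmox1 of BEC-like cells was above the low barcodes in 0 of 9 libraries. The part of the clusters, the markers and free RNA in either difference was not tested. Hepatocyte-like Hamp was at 889.5 CPM at D0 and at 1614, 1197, 1265, 843 and 899 CPM in the same 5 libraries, which overlapped it.

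In DC-like cells, Slc40a1 had the smallest adjusted p (0.051 by edgeR, log2 1.91 ± 0.54 SE), with 2 genes at an unadjusted p under 0.05 and 5.47% of 13487 genes called. DESeq2 called Slc40a1, and edgeR did without D3 B, D19 A or D25 B and, together with a higher Hmox1, with no filter on low counts. The level of Slc40a1 was above that of the low barcodes in 0 of 12 libraries. It was at 23.2 and 2.30 CPM in D0 A and D0 B, at 43.9 to 252 CPM in DDC libraries of protocol A and at 6.17 to 17.7 CPM in those of protocol B. Slc40a1 and Hmox1 were higher in protocol A than in B on 6 of 6 days in these cells, and summed Kupffer cell markers there ran from 37.0 to 69.5 CPM at D0, from 37.7 to 216 CPM at onset and from 50.5 to 1757 CPM in progression (6 to 8 of 8 detected). The DC-like class joins 6 clusters whose shares moved as well, with at most 29.9% of its cells at D0 and 33.1 to 55.6% under DDC in the one led by Cd209a and Tnfsf9, and 24.0 and 26.0% against 2.10 to 23.6% in the one led by Siglech and Klk1. The part of either in the difference was not tested. LSEC-like cells had 1 gene at an unadjusted p under 0.05 (Tfrc, log2 -1.46 ± 0.46 SE) and 0 called by DESeq2, beside 0.439% of 12749 genes called. Tfrc there was at 15.5 CPM in D0 A, 2.23 CPM in D0 B and 1.88 to 6.37 CPM under DDC, and its estimate was 0.78 without D0 A and -2.01, a call, without D0 B, and it was also called with no filter. Tfrc of LSEC-like cells was above the low barcodes in 0 of 12 libraries. Hmox1 of LSEC-like cells was at 204 and 74.5 CPM at D0, 64.3 to 85.7 CPM at onset and 121 to 215 CPM in progression.

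**Figure D4:**
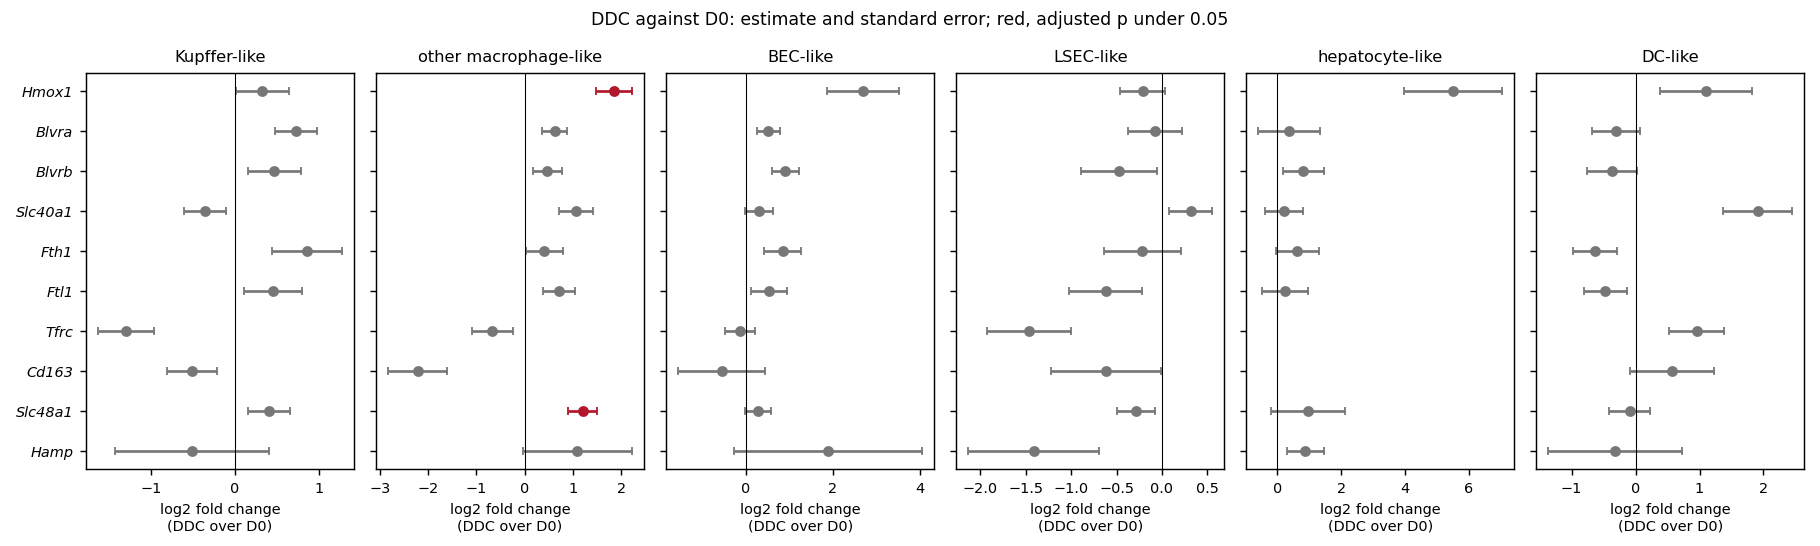
Log2 fold change of DDC over D0 with its standard error for the 10 genes in 6 cell types (x axes differ between panels, and Tfrc and Cd163 were not tested in hepatocyte-like cells). Hmox1 (1.85) and Slc48a1 (1.20) in other macrophage-like cells, in red, passed an adjusted p under 0.05.

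Progression was set against onset to see change within the diet, without the D0 libraries as reference. By edgeR 0 of the 10 genes were called in any of the 5 types with onset libraries, beside 0.279% of genes called in Kupffer-like, 0.0842% in other macrophage-like, 0.0392% in LSEC-like, 0.00741% in DC-like and 0.0% in BEC-like cells. In LSEC-like cells Hmox1 was 2.05-fold higher in progression (log2 1.04 ± 0.22 SE, edgeR adjusted p = 0.16), with no overlap between the onset and progression libraries given above. DESeq2 called it, and edgeR did without D5 B and with no filter on low counts. The cluster led by Ednrb and Rasd1 held 70.1% of the LSEC-like cells of D19 A, the library with the highest Hmox1, and at most 2.25% of those of any onset library, and the cluster led by Hspa1b and Serpina1e held 57.5 to 83.0% at D0, 2.55 to 25.2% at onset and 0 to 5.85% in progression. Without D19 A the estimate was 1.01. Summed Kupffer cell markers in LSEC-like cells ran from 357 to 552 CPM at onset and from 530 to 1074 CPM in progression (5 to 8 of 8 detected). Hmox1 of LSEC-like cells was above the low barcodes in 1 of 12 libraries. The part of the clusters, the markers and free RNA was not tested. In other macrophage-like cells Cd163 (log2 2.92 ± 0.58 SE, edgeR adjusted p = 0.073), Slc40a1 (log2 0.91) and Slc48a1 (log2 0.77) missed the threshold with edgeR and passed it with DESeq2, and edgeR called Cd163 and Slc48a1 without D9 A and all 3, with Hmox1, with no filter. Cd163 of other macrophage-like cells was above the low barcodes in 3 of 12 libraries. Its log2 estimate was also positive in BEC-like (3.52), LSEC-like (1.37), DC-like (1.22) and Kupffer-like cells (0.365). Kupffer cell markers in other macrophage-like cells summed to 178 to 574 CPM at onset and 574 to 1886 CPM in progression. The part of free RNA and of these markers in the Cd163 estimate was not tested. In Kupffer-like, BEC-like and DC-like cells DESeq2 also called 0. All 10 genes had positive estimates in other macrophage-like and in LSEC-like cells, 9 in DC-like and 8 each in Kupffer-like and BEC-like cells. Medians in other macrophage-like and LSEC-like cells were 0.60 and 0.67 log2 units against -0.02 and 0.01 over all genes tested. Those in DC-like, Kupffer-like and BEC-like cells were 0.40, 0.31 and 0.23, against -0.004, 0.003 and 0.0002. The share of all genes with a positive estimate was not computed. At an unadjusted p under 0.05 were 2, 5, 4, 2 and 2 genes in Kupffer-like, other macrophage-like, LSEC-like, BEC-like and DC-like cells. In Kupffer-like cells Hmox1 was at 1217 to 1978 CPM at onset and at 1407 to 3469 CPM in progression, with the 4 libraries of D19 and D25 at 2443 CPM or more (log2 0.63 ± 0.26 SE, edgeR adjusted p = 0.46).

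Levels also differed between the protocols of the same day, which is given with no test. The Cd45+ sort of protocol B took Cd64- cells only. Its atlas libraries held 22 to 99 Kupffer-like cells each, against 327 to 956 in protocol A, and STOP held 83. The counts do not show which sort of protocol B these cells came from. In Kupffer-like cells Fth1 was higher in protocol B than in A on 6 of 6 days, with a median ratio of 1.97, and so was Blvrb with a median ratio of 1.34. In LSEC-like cells Fth1 was higher in protocol B on 4 of 6 days and Ftl1 on 3, and Ftl1 of DC-like cells on 1 of 6. The protocol was a term in each fit between stages. Per the labels the sort and the index type of the library kit changed together and cannot be told apart.

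Recovery after the diet was described by the STOP library beside D19 B, the nearest day of the same protocol. With 1 library each there is no test, and the intervals (exact 95% Poisson) cover counting error only. In Kupffer-like cells (83 and 99 cells) Hmox1 was at 1534 CPM (1451 to 1621) in STOP and at 3469 CPM (3373 to 3567) in D19 B, a ratio of 0.442. The STOP level lay within the range of the 6 atlas libraries of protocol B (1407 to 3469 CPM). Fth1 likewise stood at 15630 against 30160 CPM, a ratio of 0.518, while Tfrc stood at 57.6 (42.5 to 76.3) against 19.1 CPM (12.6 to 27.8), above the protocol B range of 9.90 to 49.0 CPM. Blvra, Blvrb and Slc48a1 had overlapping intervals.

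In other macrophage-like cells (179 and 704 cells), Hmox1 was at 722 CPM (684 to 760) in STOP and 1012 CPM (990.5 to 1033) in D19 B, and Slc48a1 at 104 CPM (90.1 to 119) and 179.5 CPM (171 to 189). Both STOP values were above those of D0 B, 178 and 62.3 CPM. Hepatocyte-like cells (467 and 27 cells) held 58.2 CPM (50.0 to 67.2) of Hmox1 in STOP against 408.5 CPM (330 to 500) in D19 B. They held 25200 against 13020 CPM of Ftl1 and 686 against 843 CPM of Hamp, with intervals apart. In DC-like cells Hmox1 was higher in STOP, at 25.6 against 15.8 CPM with intervals apart, in BEC-like cells it was lower, at 77.2 against 102 CPM, and in LSEC-like cells the intervals overlapped. Over the 6 types, 36 of 60 pairs had intervals apart, which at these depths marks differences between 2 libraries and not between conditions. The share over all genes was not computed, so the count is not a result about these genes.

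**Figure D5:**
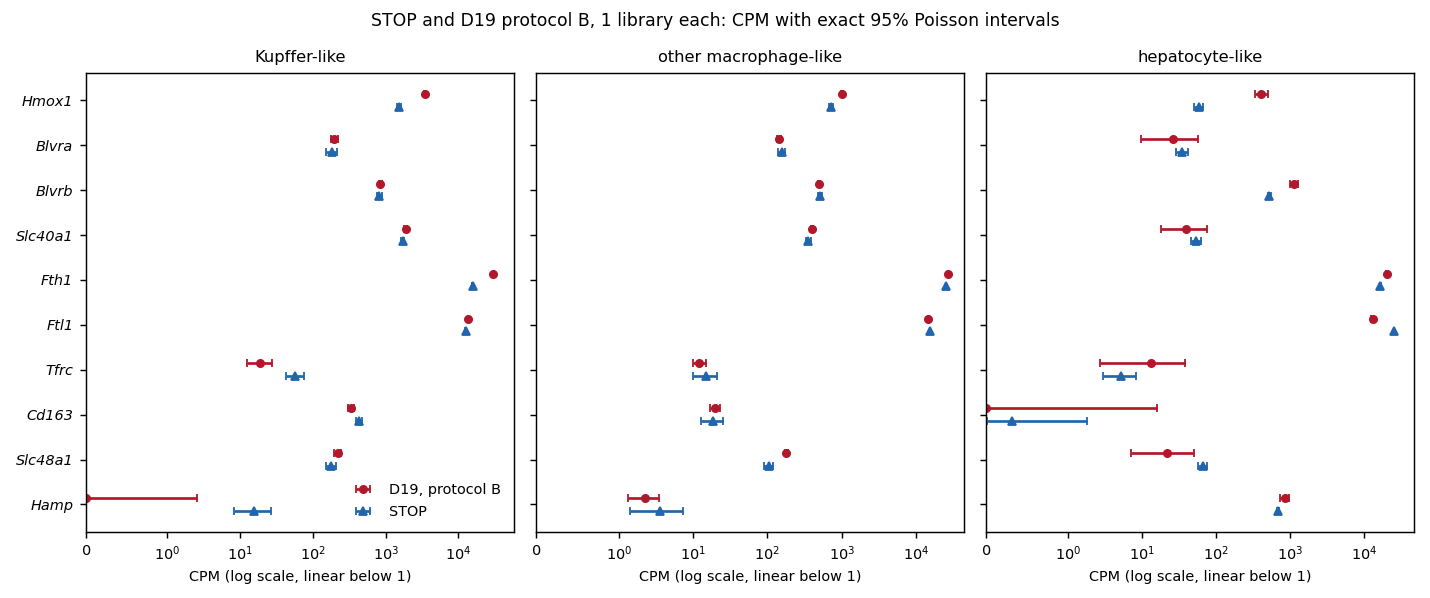
CPM of the 10 genes in STOP (blue triangles) and D19 B (red circles) in 3 cell types, with exact 95% Poisson intervals on a log scale that is linear below 1. Hmox1 is lower in STOP in these 3 types, with ratios of 0.442 in Kupffer-like, 0.713 in other macrophage-like and 0.142 in hepatocyte-like cells.

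A wider list of 43 iron and heme genes gave few calls with diet. Between DDC and D0 none of the tested genes was called in Kupffer-like (34 tested), LSEC-like (37) or hepatocyte-like cells (29) by edgeR, with 3, 4 and 8 at an unadjusted p under 0.05, or by DESeq2, which gave an adjusted p to 12 genes in hepatocyte-like cells. In other macrophage-like cells 2 of 36 were called higher, beside 4.83% of all genes in either direction. These were Lrp1 (log2 1.52), a receptor for heme bound to hemopexin, and Spic (log2 1.10), a transcription factor of iron-recycling macrophages, and the list median was 0.16 against 0.04 over all genes. The call of Lrp1 was lost in protocol A alone and without D0 B. The call of Spic was lost in 7 of 12 fits without 1 library (D0 A, D0 B, D3 A, D3 B, D5 A, D19 B or D25 A), in each protocol alone and within the Ms4a7 cluster. DESeq2 called 4 genes of the list in this class, beside 954 over all genes.

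DC-like cells had 2 of 36 called higher, beside 5.47% of all genes in either direction. DESeq2 called 6 of the list, beside 1177 over all genes. The 2 called by edgeR were Bmp2 (log2 1.76), an inducer of hepcidin when made by endothelium, and Slc39a8 (log2 1.56), a metal importer. Both calls were lost without D0 B, in protocol A alone and without cells called as doublets. Beside the cluster shares given above, the DC-like cluster led by Cd209a and Tbc1d4, with the endothelial genes Rspo3, Edn1 and Vwf among its leading genes, held 0.567 and 6.67% of the cells at D0 and 2.58 to 20.5% under DDC. LSEC markers in DC-like cells summed to 1240 to 1958 CPM at D0 and 819 to 3180 CPM under DDC (10 of 10 detected), and other endothelial markers to 421 to 506 CPM and 192 to 596 CPM (6 to 9 of 9), and the part of none of these was tested. In BEC-like cells Spic (log2 4.81) was the 1 gene of 39 past the threshold by edgeR, and DESeq2 called 4. That fit has 1 D0 library, assumed to vary like the others, and Spic missed the threshold in 6 of 8 fits without 1 library (D9 A, D9 B, D19 A, D19 B, D25 A or D25 B), in protocol A alone and without doublets. Other macrophage markers in BEC-like cells were 243 CPM in D0 A and 539 to 2304 CPM under DDC, and Kupffer cell markers 73.6 CPM and 37.0 to 766 CPM (7 to 8 of 8 detected). The D0 A cells were mostly in the Ces1d cluster and the DDC cells mostly in others, as given above, and the part of markers and clusters was not tested. Between progression and onset edgeR called 1 gene over all types, Lcn2 in Kupffer-like cells (log2 4.31), which encodes a protein that binds iron-carrying siderophores. Its call was lost in 4 of 12 fits without 1 library (D3 A, D3 B, D5 A or D25 A) and without doublets. Neutrophil markers in Kupffer-like cells ran from 22.0 to 96.5 CPM at onset and from 22.2 to 401 CPM in progression (2 to 6 of 6 detected), and BEC markers from 5.34 to 46.9 and from 13.3 to 105 CPM (0 to 12 of 12), whose part was not tested. DESeq2 called 1 gene each in Kupffer-like and LSEC-like cells and 3 in other macrophage-like cells, beside 61, 67 and 220 over all genes.

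Between the macrophage classes 24 of 33 tested genes of that list were called, 16 higher and 8 lower in Kupffer-like cells, beside the 52.0% over all genes. Ncoa4, which brings ferritin to autophagy, was 2.44-fold higher (log2 1.29 ± 0.09 SE), followed by Bmp2 (log2 1.11) and Slc46a1 (log2 1.08), a folate transporter that also carries heme. LSEC markers summed to 670 to 7286 CPM in Kupffer-like and 923 to 4807 CPM in other macrophage-like cells. Other endothelial markers summed to 333 to 1129 CPM and 89.3 to 565 CPM. The part of these markers in the Bmp2 difference was not tested. Slc39a14, an importer of free iron, was lower by a log2 difference of -0.90, Bach1, a heme-sensing repressor of Hmox1, by -0.62, and Nfe2l2, an activator of Hmox1, by -0.60. The list median was 0.12 against 0.02 over all genes.

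Genes with the most similar pattern were named by Pearson's r of log2 CPM over the 63 sums of type and library, among 8541 genes. The sums share libraries and depth, and cell type sets most of the spread, so r is a description. Hmox1 was close to Lpl (0.90) and Spic (0.89), Cd163 closest to Timd4 (0.93) and Fcna (0.93), and Slc40a1 to Wdfy3 (0.93) and Pmp22 (0.93). Blvra was closest to Cndp2 and Spic (0.91 each), Blvrb to Hebp1 (0.93), Slc48a1 to C1qc (0.90), Fth1 to Prdx5 (0.94), Ftl1 to Akr1a1 (0.93) and Hamp to Rarres2 (0.93). For Tfrc the highest value was 0.78, with Nck2.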

How the data were processed

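The deposited values are whole UMI counts for each barcode and gene. Per the submitters' processing notes the authors used kallisto and GRCm38 (versions and annotation are not given in the sources used here), and the values were neither scaled nor limited to cells. The cell threshold of 1500 UMIs follows the study. Cells were clustered with scanpy 1.11.5 (2000 variable genes without the 10 genes, 40 components, 25 neighbours, Leiden resolution 1.5) and named from marker lists (at least 3 markers, each in 10% of cells and 2-fold over the rest). Of all cells 18.65% stayed unnamed. Doublets were kept, and removal of the 6.80% called by Scrublet was an alternative.

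Counts were summed per library and type (at least 20 cells) and tested with edgeR 4.0.16 (quasi-likelihood, TMM, filterByExpr, Benjamini-Hochberg over all genes at 0.05) in 1 fit per type with stage and protocol as terms. DDC against D0 is the mean of onset and progression minus D0. Alternatives were DESeq2 1.42.0, no filter on low counts, a minimum of 3000 UMIs, removed doublets, Leiden resolution 1, each protocol alone and leaving out each library. Total counts of 29307190 to 108602421 UMIs and the cells of a type set the precision, and Poisson intervals cover counting error only. Named genes are the 10 members, up to 3 called genes per direction of the wider list, and genes among the 3 most similar to each member, not all of which are reported here. The members and lists were chosen with earlier results of these data known.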

Additional observations from a re-analysis of the deposited data

Results flagged for a closer look

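In 15 of 100 groups of 4 to 6 libraries, 1 library was far from the others by Dixon's test at the 95% level, which chance gives in about 1 in 20 groups, and 10 of the 15 concern D19 A. In DC-like cells of D19 A (72 cells), 7 genes stood above the rest of progression. Hmox1 was at 583 CPM with the next library at 89.4, Blvra at 66.1 (next 37.1), Blvrb at 170 (next 68.4), Slc40a1 at 252 (next 80.2), Fth1 at 9528 (next 6290), Ftl1 at 5682 (next 2606) and Slc48a1 at 83.2 CPM (next 40.8). The low barcodes of D19 A were higher still for each of these genes, with 1473 CPM for Hmox1, and these DC-like cells held 1757 CPM of Kupffer cell markers. The part of either was not tested.

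In BEC-like cells of D19 A (94 cells), Slc40a1 was at 152 CPM (next 99.0) and Hamp at 265 CPM (next 12.0), the latter from 308 UMIs in 5.32% of the cells. Cd163 in hepatocyte-like cells of D19 A was at 4.35 CPM, from 2 UMIs, and Cd163 in DC-like cells of D25 A was at 36.8 CPM (next 9.95), from 28 UMIs.

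At onset, Hmox1 in other macrophage-like cells was low in D5 B with 520 CPM (next 814), Blvra there was high in D3 B with 144 CPM (next 111) and Tfrc in D5 B with 9.08 CPM (next 6.50). Tfrc in Kupffer-like cells of D3 B (22 cells) was at 49.0 CPM (next 27.4), from 14 UMIs.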

How the results depend on the processing

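Between DDC and D0, DESeq2 and edgeR without the filter called more of all genes than edgeR with the filter in each type. In Kupffer-like cells these were 359 and 669 against 196, and in LSEC-like cells 308 and 604 against 56. In DC-like cells they were 1177 and 1557 against 738. The number of called genes among the 10 changed as follows between DDC and D0. With DESeq2 it was 4 in other macrophage-like cells and 1 each in BEC-like, hepatocyte-like and DC-like cells. Without the filter on low counts it was 4 in other macrophage-like cells, 2 each in Kupffer-like, BEC-like, LSEC-like and DC-like cells and 1 in hepatocyte-like cells. In other macrophage-like cells it was 3 with at least 3000 UMIs, at Leiden resolution 1 and without the Cd5l cluster. It was 1 in Kupffer-like cells with at least 3000 UMIs, 0 in other macrophage-like and 1 in BEC-like cells in protocol A alone, and 1 in the largest other macrophage-like cluster. Leaving out 1 library each gave 0 to 3 in other macrophage-like, 0 to 2 in DC-like and 0 to 1 in Kupffer-like, BEC-like and LSEC-like cells.

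The alternatives on single macrophage clusters were chosen after the data had been seen. Between progression and onset, DESeq2 called 3 in other macrophage-like and 1 in LSEC-like cells, beside 220 and 67 over all genes. The fit without a filter called 4 and 3 there, beside 638 and 292 over all genes. It called 1 each in Kupffer-like and BEC-like cells and 2 in DC-like cells, beside 296, 284 and 240 over all genes. Without the Cd5l cluster 1 of the 10 genes was called in other macrophage-like cells. Leaving out 1 library gave 0 to 2 in other macrophage-like and 0 to 1 in LSEC-like cells. The difference of the DDC effect between the macrophage classes had 2 called genes with DESeq2, 3 without a filter, 1 without the Cd5l cluster and 0 to 2 without 1 library. Over all genes that difference had 83 calls with DESeq2 and 175 without a filter. Between the classes themselves, 6 to 8 of the 10 genes were called in all alternatives, some of which left Hamp untested. The cause of these changes was not tested.

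Directions turned for Tfrc in Kupffer-like cells (DDC against D0, 1.44 in protocol B alone and -1.70 to 1.53 without 1 library, the highest without D0 A), for Hmox1 and Tfrc in LSEC-like cells (DDC against D0, Hmox1 0.32 in protocol B alone and -0.55 to 0.34 without 1 library, Tfrc -2.01 to 0.78, both highest without D0 A), for Hmox1 in BEC-like cells (progression against onset, -0.49 to 1.73 without 1 library, with -0.49 without D5 B and -0.17 without D25 B) and for Hmox1 in DC-like cells (progression against onset, -0.20 in protocol B alone).

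Over all genes, calls between DDC and D0 in other macrophage-like cells numbered 573, with 954 by DESeq2, 1293 without a filter, 60 and 815 in protocols A and B alone and 266 to 1099 without 1 library. Of 192 median levels recomputed with other settings, 192 moved by no more than the SD over the atlas libraries. That SD includes differences of diet and protocol and can exceed the median, as for Hmox1 in DC-like cells (SD 160, median 27.9 CPM). The count is therefore a weak check. Progression against onset in hepatocyte-like cells could not be fitted for want of onset libraries. Also not fitted were hepatocyte-like cells at 3000 UMIs and those comparisons in BEC-like and hepatocyte-like cells for which 1 protocol alone, or the fit without D0 A, leaves a stage empty. No paired analysis was possible because the replicate numbers, between stages, stand for the isolation protocols, which were a term in each of those fits, whereas the comparison of the macrophage classes has library as a block.

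The 2 D0 libraries (1 in BEC-like and hepatocyte-like cells), 22 to 31 Kupffer-like cells in D0 B, D3 B and D9 B, and hepatocyte-like classes of 27 to 50 cells in most libraries limit what could be seen.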

Other observations

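T-like cells, which were used only to gauge background, held the transferrin receptor gene Tfrc at 7.30 to 87.3 CPM over 12 libraries. D0 B was lowest with 7.30 CPM, and D0 A held 21.3 CPM. At onset Tfrc was at 41.1, 32.4, 57.8 and 49.9 CPM in D3 A, D3 B, D5 A and D5 B, and in progression at 31.2 to 87.3 CPM, so that all 10 DDC values lay above both D0 values. No test was run on this. Protocol A libraries held only 21 to 56 T-like cells each, and their counting intervals overlap: D0 A has 4 Tfrc UMIs (5.81 to 54.6 CPM), D3 A 5 (13.4 to 96.0 CPM) and D19 A 4 (8.50 to 79.9 CPM). Fth1 in T-like cells was at 5129 CPM in D0 B and at 1316 to 2362 CPM in the other 11 atlas libraries, and Fth1 of DC-like cells was also highest in D0 B, with 10520 CPM. D0 B is 1 of the 2 D0 libraries of the Kupffer-like, other macrophage-like, LSEC-like and DC-like comparisons, and is not in those of BEC-like and hepatocyte-like cells.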
